A study of Drosophila melanogaster with 8 samples.

Results

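Named genes of chromosome 4 were examined in RNA-seq of adult fly heads. The list held 46 gene symbols chosen for their place on this chromosome, and 43 of them were found among the 16727 symbols in the count files. The annotation placed all 43 on chromosome 4, and all 43 passed the filter on low counts, so none was lost to it. The other 3 listed symbols, dati, ATPsynbeta and Ekar, are carried in the files under the older names Lin29, ATPsyn-beta and CG9935, and their values are given apart. The 43 genes are spread from PlexB, which starts at base 32478, to Dyrk3, which ends at base 1230713 (Drosophila melanogaster assembly dm6, here from the BDGP6.54 annotation), with 17 on the plus strand and 26 on the minus strand. They make up 43 of the 101 symbols that the annotation places on chromosome 4.

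Chromosome 4 of Drosophila melanogaster, the dot chromosome, is very small and carries the marks of heterochromatin along most of its gene-bearing arm. HP1 and methylated H3K9 lie over it, and repeats are interspersed with its genes, yet many of these genes are active and encode regulators of development and of the nervous system. The protein Pof binds the chromosome and raises its output, while the methyltransferase Eggless deposits H3K9 methylation there. Top3beta is a topoisomerase with activity on RNA as well as DNA, and the study asked what its loss does to heterochromatin and to silencing of genes. Whether the transcripts of these chromosome 4 genes differ between the genotypes is the question of the comparison here.

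The libraries fall into 2 groups of 4. The libraries labelled Top3b26 came from heads of flies with a Top3beta allele made by remobilizing a p-element, and the libraries labelled w1118 came from heads of the control stock. In both groups the flies were adults of 1 to 2 weeks, kept at 25 °C, and total RNA was extracted from sieved frozen heads. The labels give 4 replicates in each group, while the study's methods speak of fewer sets of independently prepared RNA, and nothing else says that the replicates came from separate cultures, so p-values measure only the spread between these libraries, which may be technical. The mutant is 1 allele and the RNA is of the whole head.

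Total counts on genes ran from 4816757 to 6685891 in the libraries labelled Top3b26 and from 3301976 to 7591510 in those labelled w1118, and 3 counts were worth 0.395 to 0.909 CPM, a unit that scales counts to the library's total on genes. Top3beta itself stood at 91.6, 79.9, 44.4 and 42.3 CPM in the libraries labelled Top3b26, against 34.0, 40.6, 27.8 and 23.8 CPM in those labelled w1118. Its log2 fold change was 0.90 (SE 0.24, adjusted p = 0.157) by edgeR's quasi-likelihood test (Benjamini-Hochberg). With the replicate number as a block it was 0.86 (SE 0.14, adjusted p = 0.0129) in the edgeR test, and in that fit Top3beta was called higher. The gene whose loss the label names thus stood higher in every library labelled with its mutant allele, and every direction below rests on the labels. Only the count files of replicates 1 and 2 have a header line, and the libraries stand apart by these sets, so the results that differ between the sets are also given within them. Photoreceptor markers (8 genes, among them ninaE) summed to 2278, 2124, 19715 and 23894 CPM in the libraries labelled Top3b26, against 32135, 35982, 27024 and 25186 CPM in those labelled w1118. Neuron markers summed to 4818 to 7119 CPM in the libraries labelled Top3b26 and 4115 to 5589 CPM in those labelled w1118, as head tissue would give, and ovary and testis markers summed to at most 2.42 CPM in any library. Fat body markers summed to 9889 and 16787 CPM in replicates 1 and 2 labelled Top3b26, against 13938 and 10087 CPM in those labelled w1118. In replicates 3 and 4 they summed to 9440.0 and 12066 CPM with the label Top3b26, against 38502 and 52471 CPM with the label w1118. Of the 6 tested there, 5 were called lower and 1, the weakly expressed Fbp1, was called higher. The fat body list includes the yolk protein genes Yp1, Yp2 and Yp3. The male dosage compensation RNAs roX1 and roX2 summed to 4786, 3712, 1843 and 1527 CPM in the libraries labelled Top3b26. In those labelled w1118 the roX sums were 3233, 3141, 1347 and 1063 CPM. The share of males and females in the libraries was not tested. In bulk RNA, fewer cells of a type and less RNA per cell cannot be told apart.

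The named genes were well expressed and long. Their median level, averaged over the 8 libraries, was 180.6 CPM, and the median over all tested genes was 27.6 CPM. Their median exon length was 4376 bases, against 2138 bases over the tested genes with an annotation. Per kb of exon, the median named gene had a level of 44.5 CPM and the median tested gene 13.6 CPM. The other 44 tested genes of chromosome 4 had a median exon length of 2933 bases and a median level of 37.5 CPM per kb. Here and below, this comparison list includes the listed genes dati, ATPsynbeta and Ekar, held under their older names.

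Levels per length differed widely among the named genes found under their listed symbols, to which the order below refers. ATPsyn-beta, a listed gene given apart under this older name, had a higher mean than any of them, 505 CPM per kb. Averaged over the 8 libraries, CaMKI, a calcium- and calmodulin-dependent protein kinase, had 148.6 CPM per kb of exon and Pur-alpha, a single-stranded nucleic acid binding protein, had 147.6 CPM per kb, ahead of gw, the GW182 protein of miRNA silencing, at 122 CPM per kb. The order of these genes differed between libraries. The highest was gw in replicates 1 and 2 labelled Top3b26, at 142 and 143 CPM per kb, Pur-alpha in replicates 3 and 4 with that label, at 188 and 175 CPM per kb, and CaMKI in replicates 1, 2 and 4 labelled w1118, at 159, 159 and 166 CPM per kb. PIP4K, a phosphoinositide kinase, reached 115 CPM per kb. Syt7, a synaptotagmin, reached 112 CPM per kb, and PMCA, the calcium pump of the plasma membrane, 101 CPM per kb. The lowest mean was that of fuss, a transcription cofactor of the Ski and Sno family, at 3.30 CPM per kb. The forkhead factor fd102C was next with 4.45 CPM per kb, and the Hedgehog pathway factor ci had 10.5 CPM per kb.

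Between genotypes, most fitted changes of the named genes were small. With all 8 libraries, 0 of 43 were called by edgeR's quasi-likelihood test (Benjamini-Hochberg) at an adjusted p no higher than 0.05 and at least a 1.5-fold change, where 88 of 9633 tested genes, or 0.914%, were called. Over all tested genes the libraries labelled Top3b26 were called higher in 0.249% and lower in 0.664%. At an unadjusted p of at most 0.05 the same test held 5 of the 43, 3 higher and 2 lower, against 12.4% of all tested genes (5.03% higher and 7.34% lower). With the replicate number as a block edgeR called 3 of the 43, against 3.82% of all tested genes. Limma voom also called 0 of the 43, against 0.893% of the 9633 tested genes. DESeq2 called 3 of the 43, against 2.28% of these 9633 genes. Of the 14337 genes that DESeq2 fitted, those below the low-count filter included, 1.66% were called (0.391% higher and 1.27% lower).

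The median log2 fold change of the 43 genes was 0.03, with 24 above 0 and 19 below, and 39 of them lay within 1.5-fold of no change. The other 44 tested genes of chromosome 4, with dati, ATPsynbeta and Ekar among them, had a median of 0.02. The 1647 tested genes off chromosome 4 of like expression (mean log2 CPM from 6.60 to 8.55) had a median of 0.02, and all tested genes had a median of -0.01. The interquartile range was 0.16 for the named genes, 0.28 for the other chromosome 4 genes and 0.32 for the genes of like expression. These lists are described and not tested. Scaling by library totals in place of TMM moved the median of all tested genes to 0.12 and that of the named genes to 0.15, and an exon length offset moved that of the named genes to -0.03.

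**Figure D1:**
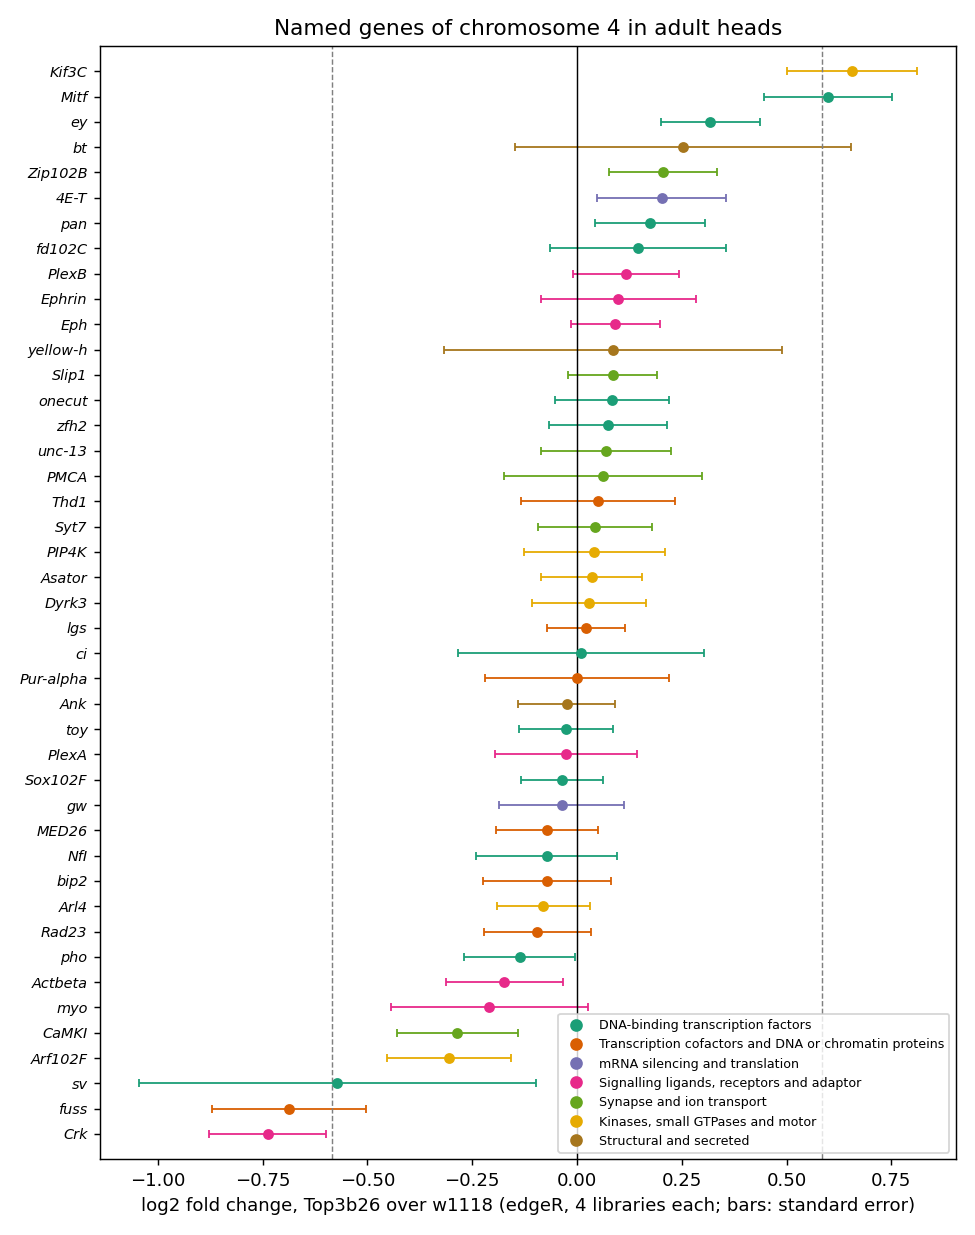
Log2 fold change of each named gene, libraries labelled Top3b26 over libraries labelled w1118 (horizontal axis, edgeR, 4 libraries each), with genes down the page and colours for the 7 role groups. Bars are the standard error and dashed lines mark a 1.5-fold change, and 39 of 43 points lie between those lines.

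Among the 12 DNA-binding transcription factors the log2 fold changes ran from -0.57 for sv to 0.60 for Mitf, with 7 above 0 and 5 below, and 0 were called. Mitf (chr4:1198852-1224467, plus strand) is the fly member of the MITF and TFEB family, which drives genes of the lysosome and the vacuolar proton pump. It stood at 245, 198, 227 and 208 CPM in the libraries labelled Top3b26, against 132, 107, 146 and 142 CPM in those labelled w1118. The lowest library labelled Top3b26 lay above the highest labelled w1118. Its log2 fold change was 0.60 (SE 0.15, adjusted p = 0.146) by edgeR's quasi-likelihood test (Benjamini-Hochberg). With the replicate number as a block the same test gave 0.61 (SE 0.10, adjusted p = 0.0159), so that Mitf rose in that fit, and over 30 alternatives (fits by edgeR, DESeq2 and limma voom) its adjusted p ran from 0.000231 to 0.469.

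The Pax6 genes ey and toy direct eye development and act in the adult brain. The level of ey was 83.3, 93.5, 71.0 and 67.8 CPM in the libraries labelled Top3b26, against 70.1, 62.4, 50.2 and 49.4 CPM in those labelled w1118. The groups overlapped because replicate 4 labelled Top3b26 lay just below replicate 1 labelled w1118, and its log2 fold change of 0.32 (SE 0.12, adjusted p = 0.314) did not pass edgeR's quasi-likelihood test (Benjamini-Hochberg). The level of toy was 183, 184, 201 and 179 CPM in the libraries labelled Top3b26, against 200.0, 168, 162 and 169 CPM in those labelled w1118. Its groups overlapped and its log2 fold change was -0.03 (SE 0.11, adjusted p = 0.959) in the edgeR test. Within each set of replicates the libraries labelled Top3b26 lay above those labelled w1118 for ey.

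The Pax2 gene sv (chr4:1088798-1113317, plus strand) acts in cone and pigment cells of the eye and in bristle cells. It stood at 24.6, 25.4, 93.6 and 91.4 CPM in the libraries labelled Top3b26, against 95.0, 73.6, 78.8 and 82.5 CPM in those labelled w1118. Replicates 1 and 2 labelled Top3b26 were low, and replicates 3 and 4 with this label lay within the range of the libraries labelled w1118. Over all libraries the log2 fold change was -0.57 (SE 0.47, adjusted p = 0.667) by edgeR's quasi-likelihood test (Benjamini-Hochberg). In replicates 1 and 2 it was -1.91 (SE 0.17, adjusted p = 1.63e-08) in the edgeR test, and sv fell there. In replicates 3 and 4 it was 0.09 (SE 0.10, adjusted p = 0.664) in the edgeR test. The summed photoreceptor markers were also lowest in replicates 1 and 2 labelled Top3b26, with 7 of 8 called lower in that set. In replicates 3 and 4, 3 of the 8 were called lower and 1, Rh6, was called higher. The part of these markers in the result for sv was not tested.

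The gene pho encodes a DNA-binding protein that brings Polycomb complexes to their target elements. It stood at 101, 98.9, 113 and 110.4 CPM in the libraries labelled Top3b26, against 125, 124, 95.3 and 87.1 CPM in those labelled w1118. In replicates 1 and 2 the libraries labelled Top3b26 were the lower, and in replicates 3 and 4 they were the higher. By set, it had a log2 fold change of -0.46 (SE 0.14, adjusted p = 0.0253) in replicates 1 and 2, which is under the 1.5-fold limit, and of 0.19 (SE 0.10, adjusted p = 0.274) in the other set, both by edgeR's quasi-likelihood test (Benjamini-Hochberg). Over all libraries the edgeR test gave -0.14 (SE 0.13, adjusted p = 0.718). The other 7 factors, which are ci, the Wnt effector pan, the zinc finger and homeodomain factor zfh2, the cut-type homeodomain factor onecut, the Sox factor Sox102F, the nuclear factor I gene NfI and fd102C, lay between -0.07 for NfI and 0.17 for pan.

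Among the 7 transcription cofactors and DNA or chromatin proteins, 2 log2 fold changes were above 0 and 5 below, and 0 were called. The lowest was that of fuss (chr4:962341-978489, minus strand), which stood at 10.6, 12.1, 9.96 and 6.90 CPM in the libraries labelled Top3b26, against 16.3, 17.9, 11.3 and 13.2 CPM in those labelled w1118. The libraries labelled Top3b26 lay low, except that replicate 2 lay above replicate 3 labelled w1118. Its log2 fold change was -0.69 (SE 0.18, adjusted p = 0.165) by edgeR's quasi-likelihood test (Benjamini-Hochberg). It was -0.70 (SE 0.17, adjusted p = 0.0599) with the replicate block and -0.70 (SE 0.16, adjusted p = 0.0195) with the set of replicates as a term in the edgeR test, so that fuss fell in the last of these, and its adjusted p over 30 alternatives ran from 0.0195 to 0.505 in these tests. Antisense and noncoding genes share 21.2% of its exon bases, and the sources used here do not say whether strand was used in counting. The other 6 are the Wnt cofactor lgs, the Mediator subunit MED26, the TFIID subunit bip2, Pur-alpha, the repair and proteasome shuttle factor Rad23 and the thymine DNA glycosylase Thd1, and their log2 fold changes lay between -0.09 for Rad23 and 0.05 for Thd1.

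Of the 2 genes of mRNA silencing and translation, 4E-T encodes an eIF4E-binding protein that represses translation. It stood at 143, 137, 174 and 157 CPM in the libraries labelled Top3b26, against 118, 109.6, 128 and 131 CPM in those labelled w1118. The lowest library labelled Top3b26 lay above the highest labelled w1118, and the log2 fold change of 0.20 (SE 0.15, adjusted p = 0.639) did not pass edgeR's quasi-likelihood test (Benjamini-Hochberg). On TMM-scaled CPM its groups overlapped. For gw, the partner of AGO1 in miRNA silencing, the log2 fold change was -0.04 (SE 0.15, adjusted p = 0.952) in the same edgeR test.

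The 7 signalling genes held the lowest fold change of all 43. Crk (chr4:210224-213165, plus strand) encodes an adaptor protein with SH2 and SH3 domains that links tyrosine kinase signals to small GTPases. It stood at 98.9, 96.3, 103 and 93.5 CPM in the libraries labelled Top3b26, against 171, 192, 125 and 118 CPM in those labelled w1118. The libraries labelled Top3b26 lay close together and all below those labelled w1118, and replicates 1 and 2 labelled w1118 were the highest. For Crk the log2 fold change was -0.74 (SE 0.14, adjusted p = 0.0506) by edgeR's quasi-likelihood test (Benjamini-Hochberg) and so narrowly failed to pass. With the replicate block it was -0.73 (SE 0.14, adjusted p = 0.0253) in the edgeR test, and in that fit Crk fell. In replicates 1 and 2 it was -1.03 (SE 0.14, adjusted p = 9.11e-06), and in replicates 3 and 4 it was -0.42 (SE 0.10, adjusted p = 0.0156) with less than a 1.5-fold change, in the same edgeR test. Over 30 alternatives its adjusted p ran from 6.87e-06 to 0.352 in these tests, and the direction was lower in all of them.

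Actbeta and myo encode ligands of the activin branch of TGF-beta signalling, and myo is known from muscle and glia. The level of Actbeta was 109.9, 106, 136 and 123 CPM in the libraries labelled Top3b26, against 138, 117, 119 and 119 CPM in those labelled w1118, and that of myo was 91.2, 89.9, 139 and 122 CPM in the libraries labelled Top3b26, against 108, 91.8, 127 and 141 CPM in those labelled w1118. Both overlapped between genotypes. Their log2 fold changes were -0.17 (SE 0.14, adjusted p = 0.657) for Actbeta and -0.21 (SE 0.23, adjusted p = 0.766) for myo by edgeR's quasi-likelihood test (Benjamini-Hochberg).

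Eph is a receptor tyrosine kinase of axon guidance and Ephrin is its membrane-bound ligand. The receptor Eph stood at 325, 322, 335 and 305 CPM in the libraries labelled Top3b26, against 308, 280.1, 249 and 271 CPM in those labelled w1118. Its libraries labelled Top3b26 were at the high end, with 1 labelled w1118 within their range. The ligand Ephrin stood at 181, 188, 258 and 229 CPM in the libraries labelled Top3b26, against 193, 155, 189 and 197 CPM in those labelled w1118, with overlapping groups. The log2 fold changes were 0.09 (SE 0.11, adjusted p = 0.772) for Eph and 0.10 (SE 0.18, adjusted p = 0.872) for Ephrin by edgeR's quasi-likelihood test (Benjamini-Hochberg).

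PlexA and PlexB are receptors for semaphorins, which guide axons. The level of PlexA was 326, 365, 433 and 367 CPM in the libraries labelled Top3b26, against 427, 289, 334 and 348 CPM in those labelled w1118, with overlapping groups. PlexB stood at 266, 284, 313 and 265 CPM in the libraries labelled Top3b26, against 267, 219.9, 230.1 and 238 CPM in those labelled w1118. Its groups overlapped by replicate 1 labelled w1118. The log2 fold changes were -0.03 (SE 0.17, adjusted p = 0.972) for PlexA and 0.12 (SE 0.13, adjusted p = 0.754) for PlexB by edgeR's quasi-likelihood test (Benjamini-Hochberg), so neither receptor of the pair passed the test, nor did Eph, Ephrin, Actbeta or myo.

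Among the 6 genes of synapse and ion transport, 5 log2 fold changes were above 0 and 1 below. The kinase CaMKI stood at 455, 418, 519 and 504 CPM in the libraries labelled Top3b26, against 538, 539, 485 and 563 CPM in those labelled w1118. The groups overlapped on CPM and did not overlap on TMM-scaled CPM, and the log2 fold change was -0.28 (SE 0.14, adjusted p = 0.473) by edgeR's quasi-likelihood test (Benjamini-Hochberg). Zip102B, a zinc transporter of the ZIP family, stood at 104, 111, 109 and 109 CPM in the libraries labelled Top3b26, against 84.9, 75.4, 88.3 and 93.3 CPM in those labelled w1118. All its libraries labelled Top3b26 were above those labelled w1118 on CPM and overlapped them on TMM-scaled CPM, and its log2 fold change was 0.20 (SE 0.13, adjusted p = 0.561) in the same edgeR test. The vesicle priming protein unc-13, Syt7, PMCA and Slip1 lay between 0.04 for Syt7 and 0.09 for Slip1.

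Among the 6 kinases, small GTPases and motors, Kif3C (chr4:1147466-1169239, plus strand), a kinesin, had the highest log2 fold change of the 43. It stood at 84.4, 96.2, 78.3 and 83.5 CPM in the libraries labelled Top3b26, against 69.2, 51.2, 39.2 and 41.0 CPM in those labelled w1118. The libraries labelled Top3b26 were all above those labelled w1118, and replicate 1 labelled w1118 was the highest of its group. The fitted log2 fold change was 0.66 (SE 0.15, adjusted p = 0.119) by edgeR's quasi-likelihood test (Benjamini-Hochberg), and without replicate 1 labelled w1118 it was 0.82 with an adjusted p of 0.0291 in the edgeR test. With the replicate block it was 0.67 (SE 0.15, adjusted p = 0.0399) in the edgeR test, and in that fit Kif3C rose. Replicates 1 and 2 gave 0.42 and the other set gave 0.91, and over 30 alternatives the adjusted p ran from 7.34e-05 to 0.483 in these tests.

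Arf102F, an Arf GTPase of vesicle traffic, stood at 51.7, 38.4, 46.7 and 52.0 CPM in the libraries labelled Top3b26, against 58.7, 64.8, 47.8 and 44.7 CPM in those labelled w1118. In replicates 1 and 2 the libraries labelled Top3b26 were below those labelled w1118, and in replicates 3 and 4 they overlapped. The log2 fold change was -0.30 (SE 0.15, adjusted p = 0.448) over all libraries and -0.60 (SE 0.17, adjusted p = 0.0159) in replicates 1 and 2 by edgeR's quasi-likelihood test (Benjamini-Hochberg). The tubulin kinase Asator, the kinase Dyrk3, PIP4K and the GTPase Arl4 lay between -0.08 for Arl4 and 0.04 for PIP4K.

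The structural and secreted genes are bt, Ank and yellow-h. The gene bt encodes projectin, a giant titin-like protein of muscle. It stood at 530.3, 609.8, 1451 and 1262 CPM in the libraries labelled Top3b26, against 564, 574, 911 and 941 CPM in those labelled w1118. Replicates 3 and 4 were higher than replicates 1 and 2 in both genotypes, and highest in those labelled Top3b26. The fitted change on the log2 scale was 0.25 (SE 0.40, adjusted p = 0.845) by edgeR's quasi-likelihood test (Benjamini-Hochberg), and in replicates 3 and 4 alone it was 0.44 (SE 0.10, adjusted p = 0.0162) in the edgeR test, under the 1.5-fold limit. The 4 muscle markers summed to 2589.9, 2536, 6259 and 6645 CPM in the libraries labelled Top3b26, against 1685, 1902, 4875 and 4579.7 CPM in those labelled w1118, and their part in the result for bt was not tested. The log2 fold changes were -0.02 for Ank, an ankyrin that anchors membrane proteins, and 0.09 for yellow-h, of the family of the yellow pigmentation gene.

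**Figure D2:**
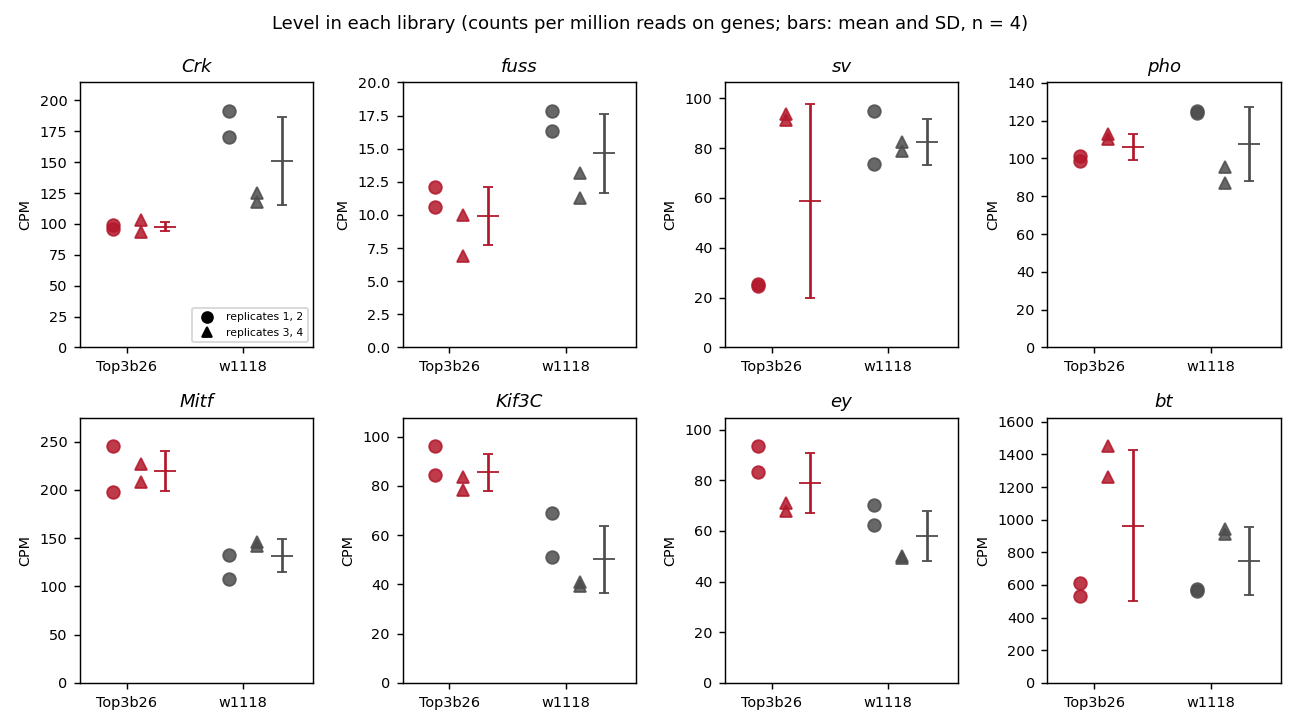
Level of 8 named genes in each library, in CPM on a linear axis from 0, with the libraries labelled Top3b26 on the left and those labelled w1118 on the right of each panel. Circles are replicates 1 and 2, triangles replicates 3 and 4, and bars the mean and SD of 4 libraries. Mitf, Kif3C and Crk separate the groups, while sv is low only in replicates 1 and 2 labelled Top3b26, at 24.6 and 25.4 CPM.

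The other 24 named genes had log2 fold changes from -0.09 for Rad23 to 0.17 for pan, 15 above 0 and 9 below, with standard errors from 0.09 to 0.40 and no adjusted p under 0.634 by edgeR's quasi-likelihood test (Benjamini-Hochberg). Exons of 12 of the 43 genes overlap those of another gene, by more than 10% of their bases in 8: PMCA, unc-13, fuss, Thd1, PIP4K, bip2, zfh2 and yellow-h. Thd1 and zfh2 overlap each other. Reads there cannot be divided between partners without strand.

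Without regard to a test, 5 of 43 named genes had groups that did not overlap on CPM, where 10.2% of all tested genes did so. These were Mitf, Kif3C, 4E-T and Zip102B, higher in the libraries labelled Top3b26 (7.64% over all tested genes), and Crk, lower (2.58%). On TMM-scaled CPM the count was again 5, against 8.32%, with Mitf and Kif3C higher (3.66%) and Crk, CaMKI and fuss lower (4.65%). Mitf, Kif3C and Crk separated the groups on both scales. Both shares of the named genes were near the background.

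Fits that take up the sets of replicates called more genes. With the replicate number as a block, edgeR's quasi-likelihood test called 3 of 43 named genes, where it called 368 of 9633 tested genes or 3.82% (0.914% higher and 2.91% lower). Mitf and Kif3C rose and Crk fell. With the set of replicates as a term it called 4 of 43, Mitf and Kif3C higher and Crk and fuss lower, where 5.6% of tested genes were called (1.41% higher and 4.18% lower). DESeq2 without either term called Mitf, Kif3C and Crk. The same 3 genes passed under the block, the term and DESeq2, which are fits of the same libraries and so not separate support. The main fit and limma voom called 0 of the 43.

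The genotypes were also compared within each set of replicates. In replicates 1 and 2, 5 of 43 were called by edgeR's quasi-likelihood test (Benjamini-Hochberg): sv, Crk, fuss and Arf102F fell and Mitf rose. Over all genes tested in that set 10.5% were called (3.5% higher and 7.03% lower), so the count was close to the background. In replicates 3 and 4, 1 of 43 was called, Kif3C, which rose, where 7.48% of all genes tested there were called (1.52% higher and 5.95% lower). With the exon length offset or with library totals 2 of 43 (4.65%) were called in that set, against 6.89% and 7.25% of tested genes. Such small counts were not tested against the background. The summed fat body markers, lower in the libraries labelled Top3b26 of that set, are given above, and their part in the results within replicates 3 and 4 was not tested. Each set has 2 libraries per genotype.

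The whole list leaned one way in the first set and the other way in the second. In replicates 1 and 2 its median log2 fold change was -0.12, with 12 genes above 0 and 31 below, and the median of all tested genes was 0.01. In replicates 3 and 4 its median was 0.14, with 35 above 0 and 8 below, and that of all tested genes was again 0.01. Relative to all tested genes, the named genes thus stood at -0.13 in replicates 1 and 2 and at 0.14 in replicates 3 and 4. Under library totals the unshifted median in replicates 1 and 2 turned to 0.03, with all tested genes at 0.15, and relative to all genes it was -0.12 there. With an exon length offset the relative medians were -0.13 and 0.08.

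The other genes of chromosome 4 lay on the same sides, with medians of -0.09 in replicates 1 and 2 and 0.11 in replicates 3 and 4. That list holds dati, ATPsynbeta and Ekar, so it is not free of listed genes. Genes of like expression off chromosome 4 had medians of 0.03 and 0.05 in the same sets. The medians of the arms 2L, 2R, 3L, 3R and X lay between -0.01 and 0.02 in both sets. Without replicate 1 labelled w1118 the median of the named genes in replicates 1 and 2 was -0.03, when the other genes of chromosome 4 were at -0.07 and those of like expression at 0.06. The named genes were at -0.19 without replicate 2 labelled w1118, at -0.09 without replicate 1 labelled Top3b26 and at -0.12 without replicate 2 of that label. In replicates 3 and 4 it was 0.07 without replicate 3 labelled Top3b26 and 0.08 without replicate 3 labelled w1118. These medians are descriptions with no test. Of the neuron markers, elav had log2 fold changes of -0.13 in replicates 1 and 2 and 0.19 in replicates 3 and 4. In the same order nSyb had -0.245 and 0.09, Syt1 had -0.02 and 0.18, and brp went the other way, from 0.33 to 0.19. The part of neuron markers in the lean of the list was not tested.

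**Figure D3:**
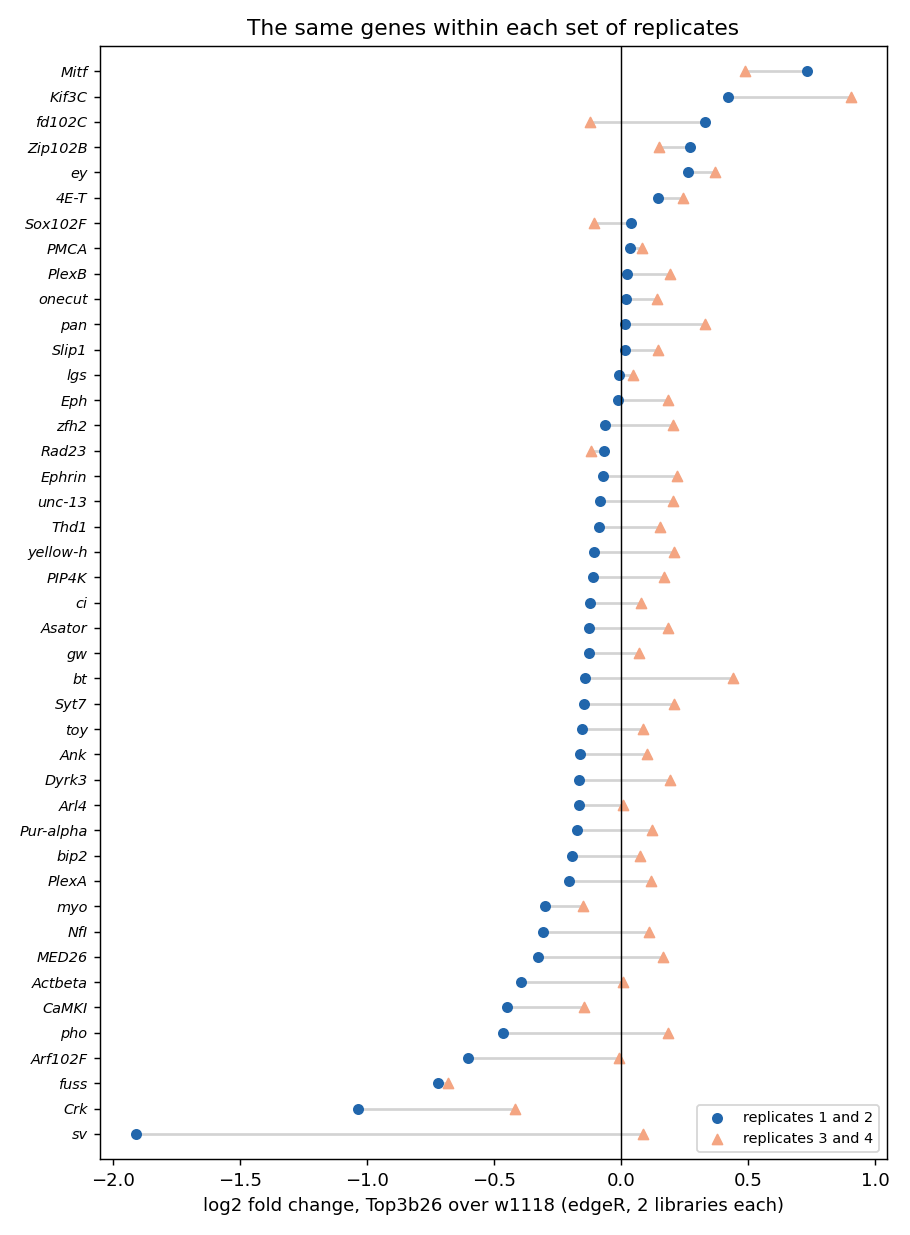
Log2 fold change of each named gene, libraries labelled Top3b26 over libraries labelled w1118, within replicates 1 and 2 (circles) and within replicates 3 and 4 (triangles), 2 libraries per genotype in each, with genes down the page. In 38 of 43 genes the triangle lies to the right of the circle, and the longest line is that of sv.

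Gene by gene, 38 of 43 named genes (88.4%) had a higher log2 fold change in replicates 3 and 4 than in replicates 1 and 2, with a median difference of 0.27. The share was 70.5% for the other genes of chromosome 4, 49.1% for genes of like expression and 46.5% for all tested genes, and it ran from 44.7% to 48.3% over the other arms. The log2 fold change was below 0 in the first set and above 0 in the second for 25 of the 43 (58.1%). This share was 45.5% for the other genes of chromosome 4, 22.2% for genes of like expression and 19.8% for all tested genes. The genotype effect of 4 of the 43 differed between sets by edgeR's interaction test with Benjamini-Hochberg adjustment, where 7.31% of all tested genes did so. The differences in log2 fold change, replicates 3 and 4 minus replicates 1 and 2, were 1.97 for sv (adjusted p = 2.17e-06), 0.62 for pho (adjusted p = 0.0172), 0.59 for Crk (adjusted p = 0.0294) and 0.55 for bt (adjusted p = 0.0477) in that edgeR test. The count of 4 was close to the background share.

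**Figure D4:**
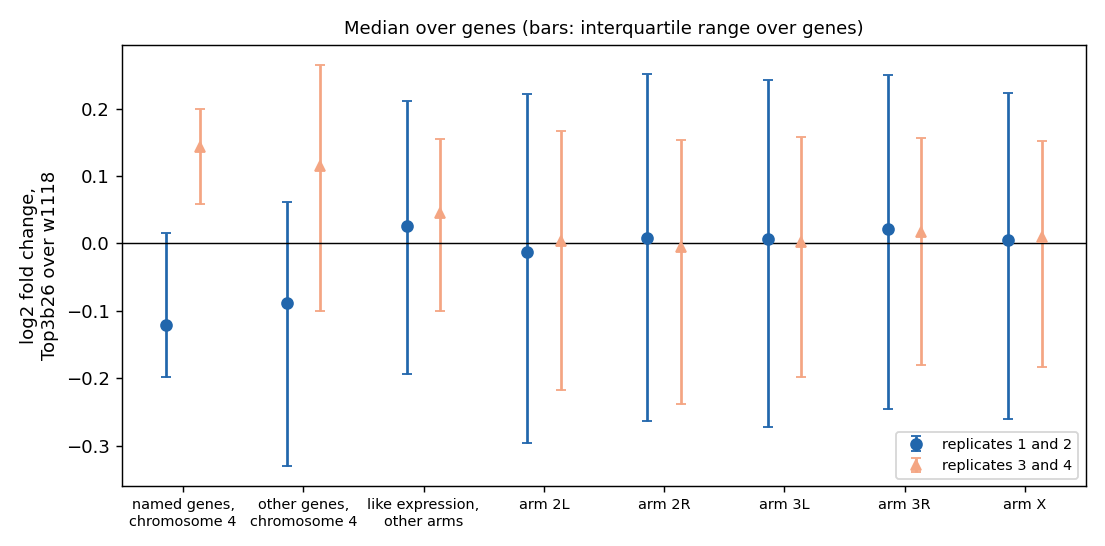
Median log2 fold change, libraries labelled Top3b26 over libraries labelled w1118, of the named genes, the other genes of chromosome 4, genes of like expression and each other chromosome arm, within replicates 1 and 2 (circles) and replicates 3 and 4 (triangles). Bars are the interquartile range over genes. The other genes of chromosome 4 include dati, ATPsynbeta and Ekar. The named genes have medians of -0.12 and 0.14, and the arms lie between -0.01 and 0.02.

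The list's level within each library gave mean differences of the same signs within each set. The mean log2(CPM + 1) of the named genes minus that of all other tested genes was 2.38, 2.42, 2.72 and 2.59 in the libraries labelled Top3b26, against 2.59, 2.39, 2.43 and 2.54 in those labelled w1118. Replicate 3 labelled Top3b26 was the highest, and replicate 1 of the same label was the lowest. In replicates 1 and 2 the groups overlapped, as replicate 2 labelled w1118 lay between the libraries labelled Top3b26. The mean was 2.53 ± 0.16 in the libraries labelled Top3b26 and 2.48 ± 0.09 in those labelled w1118 (SD, n = 4 each), a difference of 0.05 that is smaller than either spread. The difference was -0.02 without replicate 3 labelled Top3b26, -0.08 within replicates 1 and 2 and 0.18 within replicates 3 and 4. Taken against genes of like expression in place of all others, it was 0.01 over all libraries.

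Of the 3 genes under older names, Ekar (CG9935, chr4:636131-646556, minus strand), a glutamate receptor subunit of the kainate type, differed most between genotypes. It stood at 17.4, 15.9, 47.3 and 54.0 CPM in the libraries labelled Top3b26, against 72.5, 69.0, 73.4 and 82.1 CPM in those labelled w1118. All its libraries labelled Top3b26 lay below those labelled w1118, with replicates 1 and 2 the lowest. The log2 fold change was -1.24 (SE 0.42, adjusted p = 0.282) by edgeR's quasi-likelihood test (Benjamini-Hochberg), and -1.43 (SE 0.28, adjusted p = 0.0259) with the replicate block, so that it fell in that fit. It was -2.24 (SE 0.17, adjusted p = 1.29e-09) for replicates 1 and 2 and -0.72 (SE 0.12, adjusted p = 0.00182) for replicates 3 and 4 in the same edgeR test, and the sets differed by 1.49 (adjusted p = 7.12e-05, edgeR's test of the interaction). Photoreceptor markers, given above, were also lowest in replicates 1 and 2 labelled Top3b26, and their part in the result was not tested. The gene dati (Lin29), a zinc finger factor of neurons, had 0.06 and ATPsyn-beta, a subunit of the mitochondrial ATP synthase, had -0.10 on the log2 scale in the same comparison.

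Genes for proteins that act on the chromatin of chromosome 4 were read beside the list. Of 8 such genes, which include Pof, egg, wde, G9a and the gene of HP1, 0 were called by edgeR's quasi-likelihood test with all libraries, with the replicate block or within either set. Pof stood at 37.5, 23.8, 21.8 and 21.2 CPM in the libraries labelled Top3b26, against 24.4, 28.5, 25.7 and 24.2 CPM in those labelled w1118, with overlapping groups. The gene wde, a cofactor of Eggless, stood at 138, 143, 92.6 and 77.7 CPM in the libraries labelled Top3b26, against 93.2, 82.1, 83.5 and 68.9 CPM in those labelled w1118. Its groups overlapped as well, and its log2 fold change was 0.32.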

How the data were processed

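The 8 libraries are RNA-seq of adult heads, 4 labelled Top3b26 and 4 labelled w1118. The authors deposited raw read counts per gene symbol, 1 file per library, without normalization. Their methods state mapping to dm6 with Tophat, and the submitters' processing notes name FastQC, TopHat2 2.1.1 and SAMtools 1.8. The counter and its use of strand are not given in the sources used here. The file of w1118 replicate 2 is headed CPM although it holds whole numbers, and it was used as counts. Summary lines that name no gene were left out of library totals. They held 43.11% to 48.92% of the listed reads as lying on no gene, 0.559% to 0.956% as ambiguous and 16.59% to 30.44% as aligned to several places, so repeated genes are undercounted. Of 16727 symbols, 98.7% were matched to the BDGP6.54 annotation (12512 by symbol and 3996 by an older symbol).

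Counts were tested with edgeR 4.0.16 in R 4.3.3 (glmQLFit and glmQLFTest with TMM factors, after filterByExpr on genotype) with Benjamini-Hochberg adjustment over all tested genes. Calls needed an adjusted p no higher than 0.05 and a change of 1.5-fold or more. Standard errors were obtained by dividing the absolute log2 fold change by the square root of F. CPM scales counts to the library's total on genes, and a pseudocount of 1 was added before log2 for the level per library. DESeq2 1.42.0 and limma 3.58.1 (voom), RLE, upper-quartile and total scaling, no filter, an exon length offset, a replicate block, a term for the set of replicates and leaving out libraries were alternatives. The fits within a set under other scalings or without a library, and overlap on TMM-scaled CPM, were added after the data were seen. The edgeR step was also run on simulated counts. These had a common spread for all genes and no difference between the sets of replicates, so that run cannot show how the test behaves with such sets.

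The main design had no block, as the methods name no pairing. Labels number replicates 1 to 4 in both genotypes, and the deviations of same-numbered libraries correlated at 0.578, 0.437, 0.517 and 0.642. Libraries of the same set with different numbers correlated at 0.513, 0.569, 0.526 and 0.617. The check therefore shows the sets and gives no sign of pairing by number within them. The replicate block was kept as an alternative fit. Replicates of each genotype differed by more than sampling noise. Intervals of counting error were not needed, and the floor of 3 counts covers counting error only. Genes given in every library were those called with or without the block or the set term, the 5 highest and the 5 lowest fold changes, 4 pairs of related genes (ey and toy, PlexA and PlexB, Actbeta and myo, Eph and Ephrin), and those with a differing effect between sets or with groups that did not overlap. The members and lists were chosen with earlier results of these data known.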

Additional observations from a re-analysis of the deposited data

Results flagged for a closer look

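Levels of 6 named genes were marked because 1 library lay far from the other 3 of its label, beyond Dixon's 95% critical value, among 88 groups so examined; chance marks a share of about 0.05 of such groups. In Top3b26, Arl4 was lowest in replicate 2, at 68.5 CPM, against 74.0 to 74.7 CPM in the other libraries with that label. The other 5 concerned w1118 replicate 1. It was highest for zfh2 at 258 CPM (others 168 to 173 CPM), for onecut at 471 CPM (others 333 to 343 CPM), for Actbeta at 138 CPM (others 117 to 119 CPM) and for unc-13 at 1899 CPM (others 1597 to 1635 CPM). It was lowest for PIP4K at 149 CPM (others 165 to 167 CPM).

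The genotype effect of 4 named genes differed between replicates 3 and 4 and replicates 1 and 2 in edgeR's interaction test. The difference in log2 fold change was 1.97 for sv, 0.62 for pho, 0.59 for Crk and 0.55 for bt. Both sets put Crk lower in the libraries labelled Top3b26, while the direction for sv, pho and bt was lower in replicates 1 and 2 and higher in replicates 3 and 4.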

How the results depend on the processing

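Of 1290 fits of a named gene under an alternative, 1247 kept their direction, or differed in it with a value below its standard error, and stayed on the same side of the threshold; 36 newly passed it, in 6 genes (Mitf, Kif3C, Crk, fuss, sv and Arf102F), and 7 reversed. The reversals all lay in replicates 3 and 4: pho at 0.19 as fitted, 0.19 with the exon length offset, 0.19 with RLE factors and 0.29 with library totals, sv at 0.20 and Actbeta at 0.12 with library totals, and Arf102F at 0.12 with the length offset. The cause was not tested.

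The count of named genes called was 0 without the replicate block and 3 with it, 2 with the block and length offset, 4 with the set term, 3 by DESeq2, 1 with library totals, 1 with the limit on adjusted p at 0.1, and 0 to 1 when libraries were left out. Within replicates 1 and 2 it was 5, then 4 with the length offset, 4 with RLE factors and 3 with library totals. Within replicates 3 and 4 the count of named genes was 1, then 2, 1 and 2 under the same scalings. There 6.89%, 7.55% and 7.25% of all tested genes were called. Over all tested genes, 88 were called without the replicate block, 368 with it, 298 with the block and length offset and 539 with the set term. DESeq2 called 238, library totals gave 80, and the limit on adjusted p at 0.1 gave 129. The count was 1020 within replicates 1 and 2, 722 within replicates 3 and 4, and 17 to 61 with libraries left out. The median log2 fold change of the named genes was 0.03, against -0.12 within replicates 1 and 2 (-0.13 with the length offset, -0.11 with RLE factors). Within replicates 3 and 4 with library totals, where all tested genes had a median of 0.12, that of the named genes was 0.25. It ran from -0.19 to -0.03 within replicates 1 and 2 and from 0.07 to 0.19 within replicates 3 and 4 when 1 library was left out (0.16 without Top3b26 replicate 4), the lone library of a label then being assumed to vary like the others. The lowest depth was 3301976 counts, in w1118 replicate 2.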
